A study of Arabidopsis thaliana with 6 samples.

Results

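The genes described are members of the WRKY family of Arabidopsis thaliana, measured on Affymetrix ATH1 arrays in whole plants of an rli mutant and of wild type (WT). Members were all probe sets whose single gene in the array annotation had a symbol made of WRKY and a number, which gave 6 probe sets (WRKY6, WRKY20, WRKY22, WRKY42, WRKY47 and WRKY53). A further 2 genes, WRKY40 and WRKY33, were added through the ID of a probe set each, because the annotation table used here gave those probe sets no gene. The 8 members were thus drawn from 22810 probe sets, of which 13513 had 1 gene in the annotation (13358 genes with those added by ID). The reference gene table holds 67 genes with a numbered WRKY symbol, so most of the family is not described here, and 1 WRKY gene was left out by rule.

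The comparison was between 3 rli arrays and 3 WT arrays, 1 array per sample, with total RNA of soil-grown whole plants, rinsed roots included. The rli plants are labelled as a T-DNA insertion mutant of RLI, the RNase L inhibitor, which splits ribosomes for reuse with the energy of ATP, and carry the stage label 1.14 weeks. The WT plants carry the stage label 3.20 weeks. These numbers may be codes of growth stage and not ages, which was not settled here. The source name, Co-1, and the stock code are shared by both groups, and the number of insertion alleles or of pooled plants behind a sample is not given in the sources used here. Genotype and stage label change together, so they cannot be told apart in any difference below. In whole plants, a change in the share of a cell type and a change in RNA per cell cannot be told apart either. The RLI transcripts had no named probe set, so the mutant label was not checked against its own gene.

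WRKY proteins are plant transcription factors named for a conserved stretch of amino acids in their DNA-binding domain, which recognises the W box of promoters. Many respond within a short time to microbial elicitors, salicylic acid or wounding, others to leaf ageing, and many act on promoters of other WRKY genes or their own. The family is divided by the number of WRKY domains and the form of the zinc finger. WRKY33 and WRKY20 belong to group I, WRKY40 to group IIa, WRKY6, WRKY42 and WRKY47 to group IIb, WRKY22 to group IIe and WRKY53 to group III.

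Of the 8 members, 4 rose in rli. These were WRKY40, WRKY33, WRKY22 and WRKY53, by 5.40, 3.16, 2.76 and 1.99-fold in geometric mean intensity, and in each of them the lowest rli array lay above the highest WT array. The other members, WRKY20, WRKY47, WRKY6 and WRKY42, had overlapping groups. Counts were read at a limma p-value below 0.05 after Benjamini-Hochberg adjustment over 13648 probe sets whose mean log2 intensity reached 4.63. WRKY42 did not reach that level, and 7 members were tested. Over all tested probe sets, 6.8% passed, 4.27% as higher and 2.53% as lower in rli. Groups did not overlap in 28.1% of tested probe sets, with rli above WT in 15.2% and below it in 12.9%. Of the 6 members found by symbol alone 2 rose, and WRKY40 and WRKY33 were added with their values in these data known, so the count of 4 is a description of the members and not a measure of the family.

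**Figure D1:**
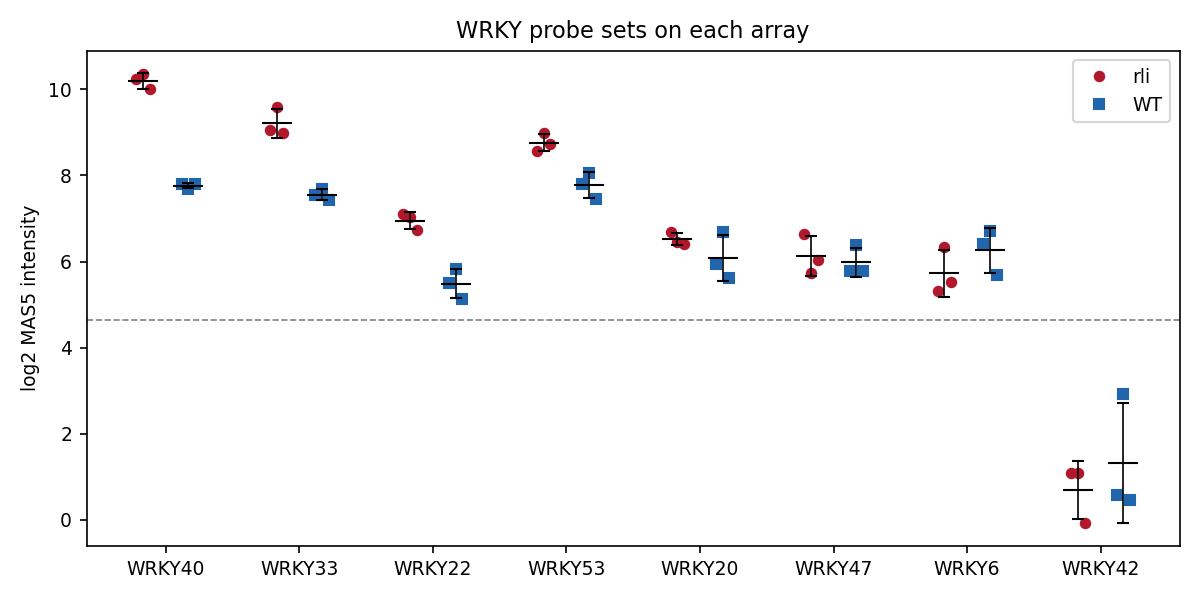
Log2 MAS5 intensity of the 8 WRKY probe sets, with 1 point per array (rli circles left, WT squares right), the mean as a long bar and the SD as a whisker (n = 3 arrays each). The dashed line is the filter level of 4.63, and the rli and WT points are apart for WRKY40, WRKY33, WRKY22 and WRKY53.

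WRKY40 had the largest rise of the members. It is a repressor that acts with its close relatives WRKY18 and WRKY60 in defence and in abscisic acid signalling. Its intensity was 1212, 1303 and 1022 on rli replicates 1, 2 and 3, against 221.3, 206.7 and 224.0 on WT replicates 1, 2 and 3. All rli arrays lay far above the WT arrays, and the WT arrays lay close together. The log2 mean was 10.20 ± 0.18 in rli and 7.76 ± 0.06 in WT (SD, n = 3 each), a log2 difference of 2.43 ± 0.18 (SE, limma adjusted p = 9.3e-05) with a 95% interval from 2.02 to 2.84. A rise of at least this size was found in 98 of the tested probe sets, or 0.718%.

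WRKY33 is needed for defence against necrotrophic fungi and activates genes of camalexin synthesis, the main phytoalexin of Arabidopsis. Its intensity was 536.7, 775.3 and 504.8 on rli replicates 1, 2 and 3, against 187.2, 207.0 and 172.3 on WT replicates 1, 2 and 3. The groups did not overlap, and rli replicate 2 was the highest of all arrays. The log2 mean was 9.22 ± 0.33 in rli and 7.56 ± 0.13 in WT (SD, n = 3 each). The log2 difference was 1.66 ± 0.22 (SE, limma adjusted p = 0.0022), with a 95% interval from 1.17 to 2.14, and the adjusted p became 0.056 when arrays were centred on their medians.

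WRKY22 acts downstream of the MAP kinase cascade that follows recognition of bacterial flagellin. Its intensity was 137.1, 130.8 and 106.0 on rli replicates 1, 2 and 3, against 45.3, 56.3 and 35.3 on WT replicates 1, 2 and 3. The lowest rli array was well above the highest WT array, although the signal was dimmer than that of the other rising members. The log2 mean was 6.95 ± 0.20 in rli and 5.49 ± 0.34 in WT (SD, n = 3 each). The log2 difference was 1.47 ± 0.25 (SE, limma adjusted p = 0.0072), with a 95% interval from 0.92 to 2.02. It did not pass after median centring (adjusted p = 0.070) or quantile normalization (adjusted p = 0.054).

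WRKY53 is a regulator of the onset of leaf senescence and also takes part in basal defence. Its intensity was 381.5, 507.1 and 425.4 on rli replicates 1, 2 and 3, against 221.4, 268.2 and 175.7 on WT replicates 1, 2 and 3. The groups did not overlap, but the gap between the nearest rli and WT arrays was the narrowest of the 4 rising members on the log2 scale. The log2 mean was 8.76 ± 0.21 in rli and 7.77 ± 0.31 in WT (SD, n = 3 each). The log2 difference was 0.99 ± 0.22 (SE, limma adjusted p = 0.026), with a 95% interval from 0.50 to 1.48. This call was lost in 6 of 17 alternatives: after median centring (adjusted p = 0.31), without the intensity trend (0.064), and without rli replicate 1, 2 or 3 (0.073, 0.10 and 0.10) or WT replicate 1 (0.085).

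**Figure D2:**
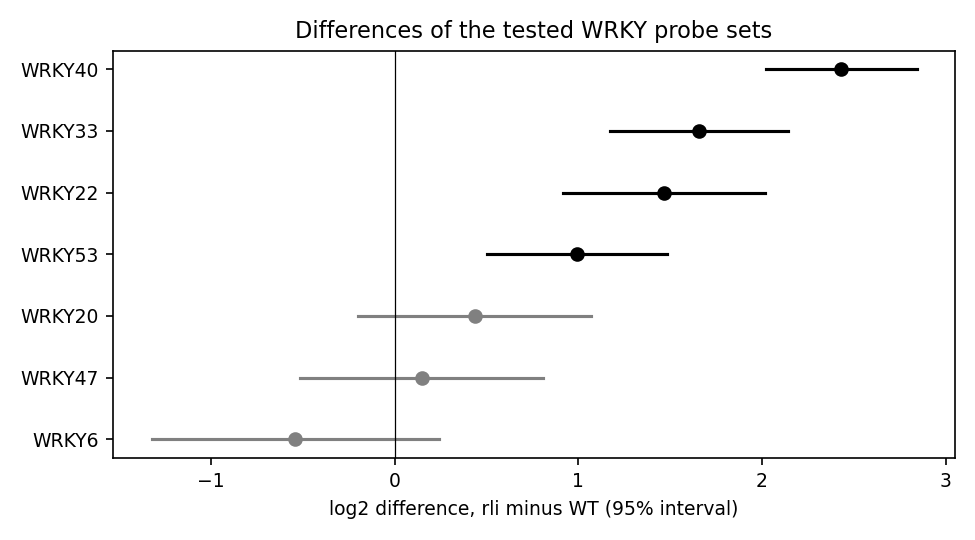
Log2 difference, rli minus WT, of the 7 tested WRKY probe sets with the 95% interval of the limma fit. Black marks members with an adjusted p below 0.05, from WRKY40 at 2.43 to WRKY53 at 0.99, and grey the members whose intervals include 0.

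WRKY6 is, like WRKY53, linked to senescence, and it also represses the phosphate transporter gene PHO1. Its intensity was 39.5, 80.7 and 46.2 on rli replicates 1, 2 and 3, against 84.9, 104.1 and 51.1 on WT replicates 1, 2 and 3. The groups overlapped, since rli replicate 2 lay above WT replicate 3. The log2 difference was -0.54 ± 0.35 (SE, limma adjusted p = 0.43), and its 95% interval from -1.32 to 0.24 includes both a fall of more than 2-fold and a small rise. With array weights, which gave WT replicate 3 a weight of 0.19, the difference was -0.90 (limma adjusted p = 0.016), and no other alternative brought WRKY6 past the threshold. With these weights 23.3% of all tested probe sets passed, against 6.8% as reported.

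WRKY42 and WRKY47 are the other members of group IIb. WRKY42, a regulator of phosphate homeostasis, was at the dim end of the array, with intensities of 2.11, 2.12 and 0.95 on rli replicates 1, 2 and 3, against 1.48, 7.61 and 1.37 on WT replicates 1, 2 and 3. All of its values were below the filter level, and without detection calls they are read as dim signal only. WRKY47 had intensities of 99.2, 52.8 and 65.6 on rli replicates 1, 2 and 3, against 55.2, 82.9 and 55.2 on WT replicates 1, 2 and 3. The highest array was an rli array and so was the lowest. Its log2 difference was 0.15 ± 0.30 (SE, limma adjusted p = 0.84), with a 95% interval from -0.51 to 0.81, and it was -0.10 without rli replicate 1. Of the 2 tested group IIb members, WRKY6 and WRKY47, 0 passed limma's test as reported in either direction and 0 had an unadjusted p below 0.05, which 21.1% of all tested probe sets had. WRKY42 had no test.

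WRKY20 shares group I with WRKY33. Its intensity was 102.9, 88.2 and 85.3 on rli replicates 1, 2 and 3, against 61.8, 102.5 and 49.4 on WT replicates 1, 2 and 3. WT replicate 2 lay among the rli arrays, and the other WT arrays lay below them. The log2 difference was 0.44 ± 0.28 (SE, limma adjusted p = 0.44), with a 95% interval from -0.20 to 1.07. ZAP1, whose synonyms include WRKY1 and which is no member by its symbol, had intensities of 119.0, 141.5 and 91.1 on rli arrays, against 87.5, 107.8 and 78.6 on WT arrays. The ZAP1 groups overlapped as well, with a log2 difference of 0.35 ± 0.24 (SE, limma adjusted p = 0.45).

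Over all 8 members the median log2 difference was 0.71, with 6 members higher and 2 lower in mean in rli. The higher ones include WRKY40 and WRKY33, which were added with their values known. The lower ones were WRKY6 and the untested WRKY42. Of all tested probe sets, 53.3% had a higher rli mean. The 6 members found by symbol had a median of 0.29. Over all probe sets without a filter the median was 0.09, and over the tested ones it was 0.04. The WRKY33, WRKY22 and WRKY53 rises bracket the median rise of 1.44 among all 583 probe sets called higher in rli, and WRKY40 was exceeded or equalled by 86 of them, itself included.

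**Figure D3:**
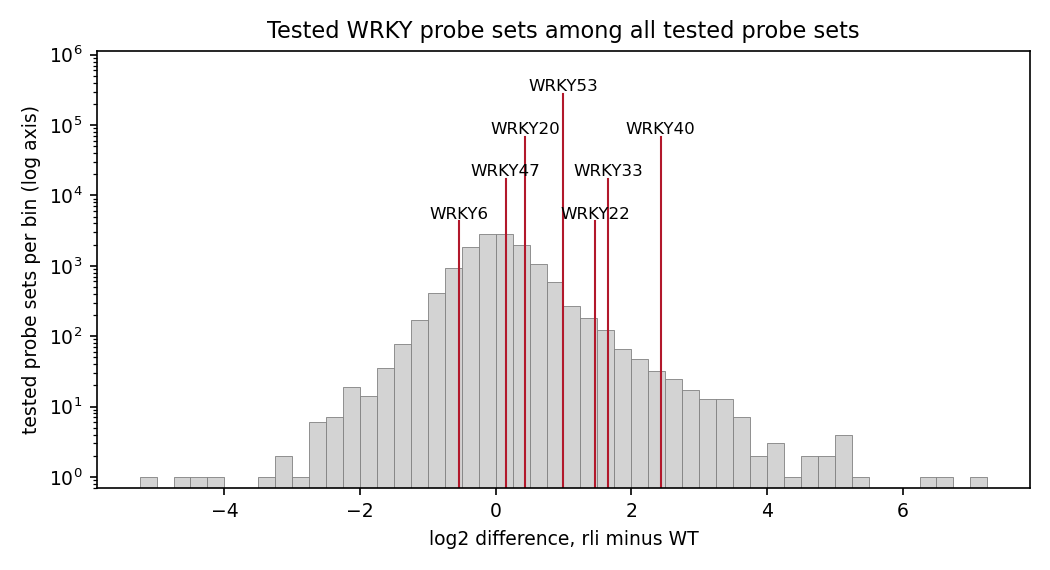
Histogram of the log2 difference, rli minus WT, over 13648 tested probe sets (bins of 0.25, counts on a log axis), with a vertical line for each tested WRKY member. WRKY40 at 2.43 stands in the upper tail, and WRKY47 at 0.15 and WRKY20 at 0.44 near the bulk.

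The order of the differences was WRKY40, WRKY33, WRKY22, WRKY53, WRKY20, WRKY47 and WRKY6. Neighbours in this order were compared within arrays, as the log2 ratio of their intensities in rli against WT. Exact two-sided permutation tests were run over the arrays. The order came from the same values, so the direction of each comparison was fixed in advance, and the ratios below are description only. The log2 difference of WRKY40 lay 0.77 above that of WRKY33, and the rli and WT ratios did not overlap (exact permutation p = 0.1, 0.2 adjusted over 6 pairs). The differences of WRKY33 and WRKY22 lay 0.19 apart with overlapping ratios (exact permutation p = 0.5). WRKY22 lay 0.47 above WRKY53, and WRKY53 lay 0.56 above WRKY20, both with ratios that did not overlap (exact permutation p = 0.1 each). The smallest p that 3 arrays against 3 allow is 0.1, so no pair could pass the threshold. WRKY20 and WRKY47, and WRKY47 and WRKY6, had overlapping ratios.

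On some arrays most members deviated from their group mean in the same direction. On rli replicate 3 all 8 members lay below their rli mean, with a median deviation of -0.20 on the log2 scale. On WT replicate 2, 7 of 8 lay above their WT mean, with a median deviation of 0.36, and on WT replicate 3, 7 of 8 lay below it, at -0.33. Over all tested probe sets the median deviations of these arrays were 0.01, 0.03 and -0.03. These medians do not give the share of probe sets on each side of their group mean, which is not given here. Deviations within a group add up to 0, so WT replicates 2 and 3 are not separate observations. In WT the exception was WRKY40, which was highest on replicate 3 and lowest on replicate 2.

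**Figure D4:**
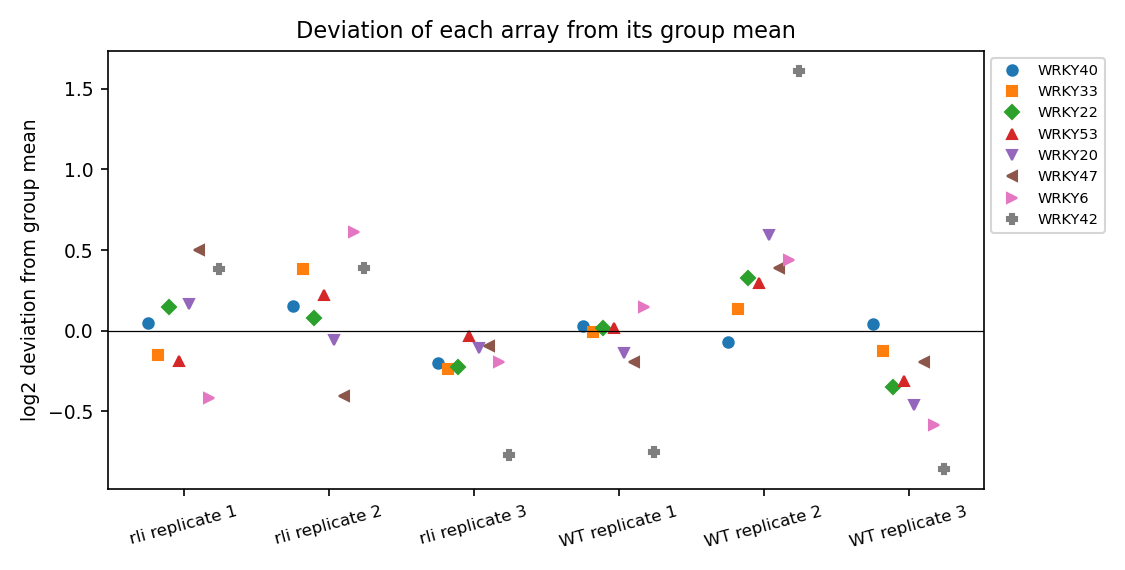
Deviation of each WRKY probe set from the mean of its group on the log2 scale, by array. All 8 points of rli replicate 3 lie below 0, while 7 of 8 points lie above 0 on WT replicate 2 and 7 of 8 below 0 on WT replicate 3.

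WT replicate 3 stood apart from the other arrays. Its mean correlation with the other WT arrays across all probe sets was 0.76, while the remaining arrays had mean correlations with their own group from 0.84 to 0.87. Its median intensity was 53.0, against 35.8 to 46.3 on the others. Without WT replicate 3 the same number of 4 members passed, and the limma adjusted p of WRKY53 was 0.0091. In that setting 15.3% of all tested probe sets passed, against 6.8% with all arrays, so the lower p is not particular to WRKY53. The mean log2 ratio of the 3' to the 5' end of 6 control pairs was 2.58 ± 0.16 in rli and 2.45 ± 0.36 in WT (SD, n = 3 each), a gap within the spread of either group. Among organ markers, 3 of the 9 leaf genes listed had a named probe set. All 3 were lower on every rli array than on any WT array, as were 12.9% of all tested probe sets. Their median log2 difference was -0.45. Of these PSAN, a photosystem I subunit, fell by 1.54 (limma adjusted p = 0.0090). RCA and SBPASE did not pass (limma adjusted p = 0.30 and 0.23). Of the root markers PYK10 read 1076 to 1254 on rli arrays and 855.3 to 1137 on WT arrays, and the other 3 root probe sets were below the filter level in both groups. The part of the leaf markers in the WRKY differences was not tested. Flower and seed markers had no named probe set.

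The lists of WRKY regulators, partners and targets, together with a list of rapid stress genes, held 75 loci. Of these, 8 could be read on a named probe set, and 5 of the 8 were rapid stress genes. The MAP kinase, VQ protein, camalexin and abscisic acid lists had 0, so the best known inputs and outputs of WRKY33, WRKY22 and WRKY40 were not analysed here. Among the receptors and receptor-like kinases, BIK1, a kinase that relays signals from immune receptors, read 137.7, 234.7 and 203.4 on rli arrays, against 247.1, 282.4 and 233.6 on WT arrays. Its log2 difference was -0.44 ± 0.23 (SE, limma adjusted p = 0.33), and the receptor EFR was below the filter level. SAG101, a partner of EDS1 in immunity that also stood in the WRKY53 and WRKY6 list for its link to senescence, had a log2 difference of 0.45 ± 0.25 (SE, limma adjusted p = 0.36). Of the 5 tested rapid stress genes known to be induced alongside WRKY33 and WRKY40, 4 rose and 0 fell, against 4.27% and 2.53% of all tested probe sets. One of the 4, CML37, had a WT mean below the filter level and was tested only through its high rli arrays, and without it 3 of 4 rose. That list was chosen with its values in these data known. STZ, a zinc finger repressor, read 1535, 1940 and 1467 on rli arrays, against 349.9, 375.0 and 246.5 on WT arrays. CML38, a calmodulin-like protein, read 599.3, 949.2 and 592.6 on rli arrays, against 151.8, 141.1 and 246.6 on WT arrays. The ubiquitin ligase gene PUB23 read 197.7, 326.3 and 162.1 on rli arrays, against 58.2, 65.6 and 77.1 on WT arrays. The rli arrays were above the WT arrays in each of these 3. PUB22 had overlapping groups, at 0.68 ± 0.29 (SE, limma adjusted p = 0.21).

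The profile of each of the 3 members with the smallest p was set against 1064 tested probe sets with a single gene and a symbol, by the root mean square distance between log2 values centred on their own mean over the 6 arrays. Such a distance depends on both the genotype difference and the array deviations, and it can be small where only the genotype differences are alike. The nearest to WRKY40 were STZ at 0.23, PUB19 at 0.27 and UF3GT, an anthocyanin glycosyltransferase, at 0.27. The log2 differences of STZ and WRKY40 were 2.36 and 2.43. Their WT arrays were not alike, since STZ was highest on WT replicate 2 and lowest on WT replicate 3, the reverse of WRKY40. The WT mean of PUB19 was below the filter level, so it was among the compared probe sets only through its rli arrays. The nearest to WRKY33 was EXO at 0.10, a gene of brassinosteroid-promoted growth, which read 1010, 1263 and 880.8 on rli arrays, against 368.6, 341.0 and 283.3 on WT arrays. PDC2, a pyruvate decarboxylase, followed at 0.17 and AR781 at 0.18. WRKY22 was nearest to CPUORF47 at 0.15, GAMMA-VPE, a vacuolar processing enzyme, at 0.16 and PDC2 at 0.19. CPUORF47 likewise had a WT mean below the filter level, so its WT values are dim signal. PDC2 was thus named for both WRKY33 and WRKY22, and it read 403.9, 422.6 and 373.9 on rli arrays, against 120.5, 130.5 and 98.5 on WT arrays. Among the members themselves the nearest pair was WRKY22 and WRKY33, at 0.23, and the farthest WRKY40 and WRKY42, at 1.77.

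The genes next to the members on the chromosome were read as well. Among the 2 protein-coding genes on each side of every member in the reference gene table, 15 loci had a probe set, 10 probe sets were tested, and 1 passed, where 6.8% of all tested probe sets did, so the count is near the background. The 1 was AT4G23820, the gene next to WRKY53, which fell in rli. It read 209.0, 174.1 and 149.6 on rli arrays, against 427.7, 368.8 and 284.7 on WT arrays, with a log2 difference of -1.01 ± 0.22 (SE, limma adjusted p = 0.026). On the other side of WRKY53, 3xHMG-box2 had a log2 difference of -0.03 ± 0.26 (SE, limma adjusted p = 0.97). The tested neighbours of WRKY40 and WRKY33, AT1G80850 and AT2G38465, had overlapping groups, at -0.14 ± 0.34 and 0.73 ± 0.38 (SE). AT1G62290, next to WRKY6, had every rli array below every WT array, as 12.9% of all tested probe sets did. Its log2 difference of -0.66 ± 0.26 did not pass (SE, limma adjusted p = 0.18).

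The adjusted p of WRKY40 stayed below 0.05 in all 17 alternatives, between 6.2e-08 and 0.0042, and its log2 difference lay between 2.36 and 2.53. WRKY33 passed in 16, WRKY22 in 15 and WRKY53 in 11 of the 17. The direction of these 4 was the same in each of them, which their separate groups largely fix.

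**Figure D5:**
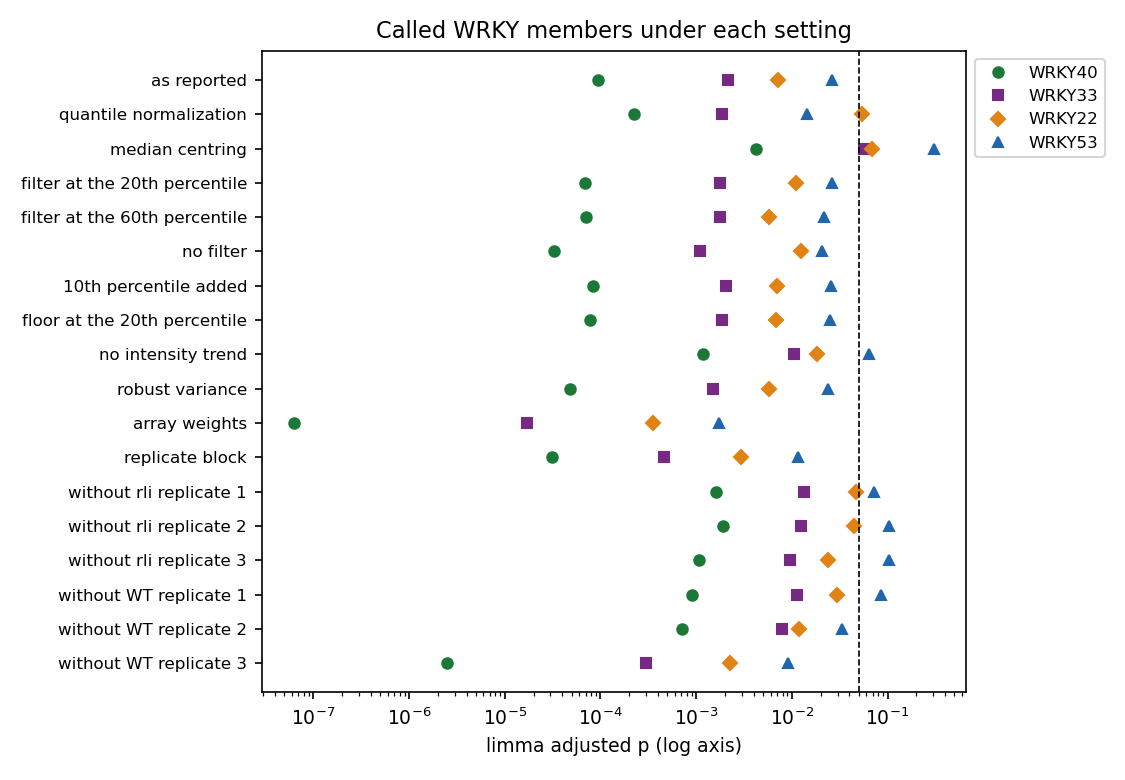
Limma adjusted p (log axis) of the 4 called WRKY members as reported and under 17 alternatives, with the threshold of 0.05 as a dashed line. WRKY40 is left of the line in every setting, whereas median centring leaves WRKY33, WRKY22 and WRKY53 right of it.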

How the data were processed

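The authors deposited 1 linear probe set intensity per array, and the submitters' processing notes name MAS5 and GCOS, with no version. A mean trimmed of 2% of the probe sets at either end came to 100.01 on every array, so the values were used as deposited, on the log2 scale. Groups and replicate numbers came from the sample titles. Probe sets were named through the platform's probe gene table and a reference gene table (TAIR10.1). The names of WRKY40 and WRKY33 were given with the rule for their probe sets. Control probe sets, 64 in number, were not tested. Probe sets with a mean log2 value at or above the 40th percentile were tested with limma 3.58.1 in R 4.3.3 (lmFit, then eBayes with trend), with genotype as the one term and two-sided p-values. The scripts were tested on simulated data. Figures used matplotlib 3.10.9.

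The members and gene lists were chosen with earlier results of these data known. All members were named. Of each pathway list, the tested members that passed or the one with the smallest p were to be named. EFR, PUB22, ZAP1, the organ markers and the neighbouring genes were named in addition. Planned descriptions of promoter and protein sequence were not run. Nothing in the labels says that replicates came from separate plants, so p-values measure only the spread between the arrays, part of which may be technical. The number of arrays limits the precision.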

Additional observations from a re-analysis of the deposited data

How the results depend on the processing

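Of 4 WRKY members called, all higher in rli, 1 passed after median centring, where 332 of all probe sets passed, against 928. Without the intensity trend 593 of all probe sets passed. Array weights gave 3181 and added 1 WRKY member called lower, WRKY6. Leaving out each array in turn gave 3 to 4 WRKY members called and 383 (without rli replicate 3) to 2084 (without WT replicate 3) of all probe sets. It gave 400 and 465 without rli replicates 1 and 2, and 499 and 554 without WT replicates 1 and 2. The cause of these shifts was not tested. WRKY47, at 0.15, reversed to -0.10 without rli replicate 1 and was 0.35 without rli replicate 2. The share of calls that were higher in rli was 62.8%, and 54.0% with array weights, 68.4% after median centring and 69.3% without the trend. With 1 array left out it ran from 57.1% (without WT replicate 3) to 74.25% (without rli replicate 1), with 71.8% without rli replicate 3, 72.5% without WT replicate 1 and 73.1% without WT replicate 2. The replicate number as a replicate block gave 4 WRKY members and 1300 of all probe sets. For rli and WT arrays of replicates 1, 2 and 3, deviations from the group means had correlations of -0.09, 0.33 and 0.32. These values cannot settle whether equal numbers mark pairs, since arrays of unequal number were not compared. The reported fit did not read the numbers as pairs. Low signal limits WRKY42, which had no test except without a filter (limma adjusted p = 0.92).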
